A study of Neurospora discreta with 48 samples.

Results

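Scaffold 18 is a stretch of the assembled genome of the filamentous fungus Neurospora discreta on which 99 of the 9280 genes of the authors' deposited table lie. All 99 were taken, in order of their start positions, from the first gene at 2 to the last, which ends at 391008. The scaffold was chosen by the share of its genes that differed between the parental strains, and the stretch from 186989 to 249191 within it was defined by 2 runs of neighbouring genes that differed in the same direction. Calls, fold differences and their adjusted p-values on scaffold 18 are therefore a description of what was picked, and they carry no test here.

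The study sequenced RNA of mycelial pads (mycelia and conidia, by the labels) of 4 strains at 4 times with 3 replicates each, 48 libraries in all. The comparison used here has 3 libraries of FGSC8578, a North American parent labelled low RI, and 3 of FGSC8831, an African parent labelled high RI; the labels do not expand RI. Both strains grew at 25 °C in low-glucose medium in cycles of 12 h light and 12 h dark, and the samples were taken 15 min into the light. The other 42 libraries, from later times of light, the dark phase and the progeny N309-89 and N309-50, are not analysed here. For every gene the authors' deposited table holds 1 mean in each of 2 arms, A and B, and no column header ties an arm to a strain. If the arms are ordered as the strains are in the name of the table, A is FGSC8578 and B is FGSC8831.

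As background, a scaffold is a run of sequence joined during assembly and may be a piece of a chromosome. Filamentous fungi often hold genes of a shared pathway side by side, and stretches of a fungal genome can differ between isolates in gene content as well as in gene activity. In Neurospora, light is sensed by the White Collar complex, a photoreceptor and transcription factor that switches on its first target genes within minutes and also drives the circadian clock. Gene IDs come without names or functions in the authors' deposited table. No role is therefore stated for any gene of scaffold 18, the labelled tissue was not checked against marker genes, and genes are given by their positions on the scaffold in the table's own coordinates.

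Levels are means of normalized counts, that is, read counts divided by a size factor of each library and averaged over an arm. The means of all genes sum to 9331506 in A and 10507386 in B, and how deeply each library was sequenced is unknown. The table holds no value per library, so no SD is printed. A gene is called where its DESeq adjusted p in the authors' deposited table is under 0.05. Differences are log2 of the mean in B over the mean in A, so negative values are lower in B. In RNA from whole cultures, fewer cells of a type and less RNA per cell cannot be told apart, and the labels do not say whether replicates were separate cultures.

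On scaffold 18, 33 of 99 genes were called in the authors' deposited table, beside 15.0% of all 9280 genes. Higher in A were 22 of them, beside 8.03% of all genes, and higher in B were 11, beside 6.93%. Over the 82 genes outside the interval, 11 were called with the higher mean in B and 9 with the higher mean in A. Of the 51 genes before the interval, 9 were called with the higher mean in B and 3 with the higher mean in A. All 13 calls among the 17 genes of the interval were higher in A, the direction for which it was picked. Of the 31 genes after it, 6 were called with the higher mean in A and 2 with the higher mean in B. The median log2 difference was 0.24 before the interval, -3.71 in it and -0.26 after it, where the median over all 9280 genes was 0.02. The arm totals differ by 0.17 on the log2 scale, and scaling them to be equal would shift each log2 value down by that amount.

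**Figure D1:**
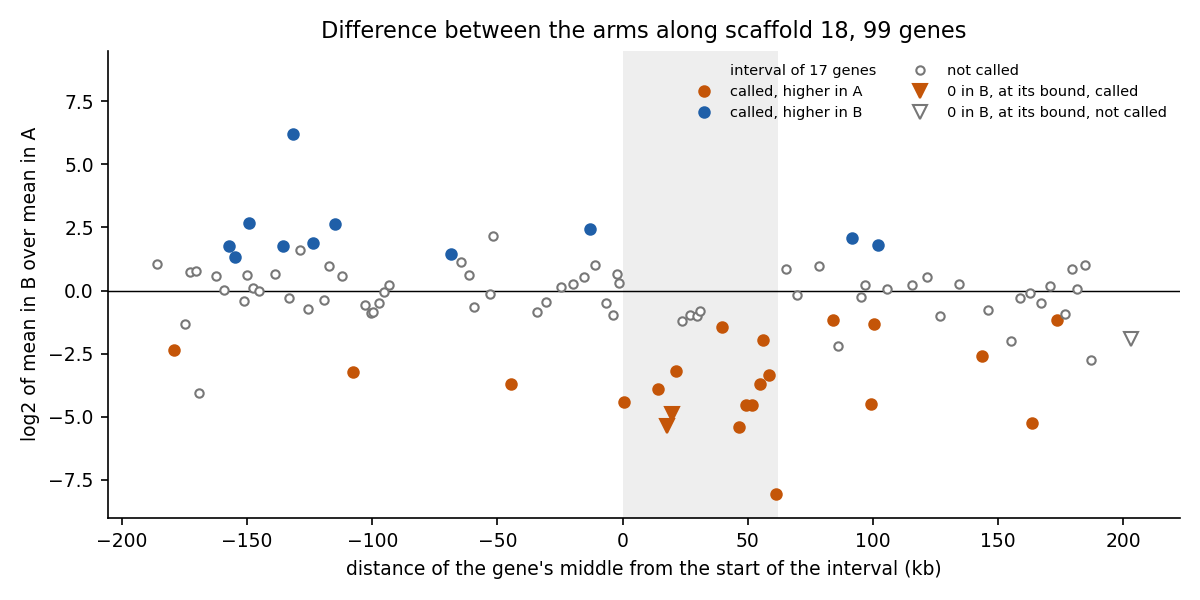
Each point is a gene of scaffold 18, plotted by the distance of its middle from the start of the interval (kb) against log2 of its mean in B over its mean in A; filled points were called by DESeq in the authors' deposited table, and triangles are genes listed at 0 in B, drawn at 3 counts. All 17 genes of the shaded interval lie below 0, and before the interval 9 of the 12 called genes lie above 0.

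Cut into windows of 50 kb by gene start, the scaffold held from 7 to 17 genes per window. The first window had 3 calls toward B and 1 toward A, and the second 4 and 1. The fifth window, from 200001 to 250000, had 11 of its 15 genes called, all higher in A, and the mean of each of the 15 was lower in B. All 15 are genes of the interval, so this window restates how the interval was picked. In the last 3 windows together, which hold the 31 genes after the interval, 6 calls were toward A and 2 toward B. Outside the interval, calls mostly stood alone. The 33 calls fell into 20 runs of same-direction neighbours, of which 16 were single genes, 2 held 2 genes, and the remaining runs, of 5 and 8 genes, bound the interval.

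**Figure D2:**
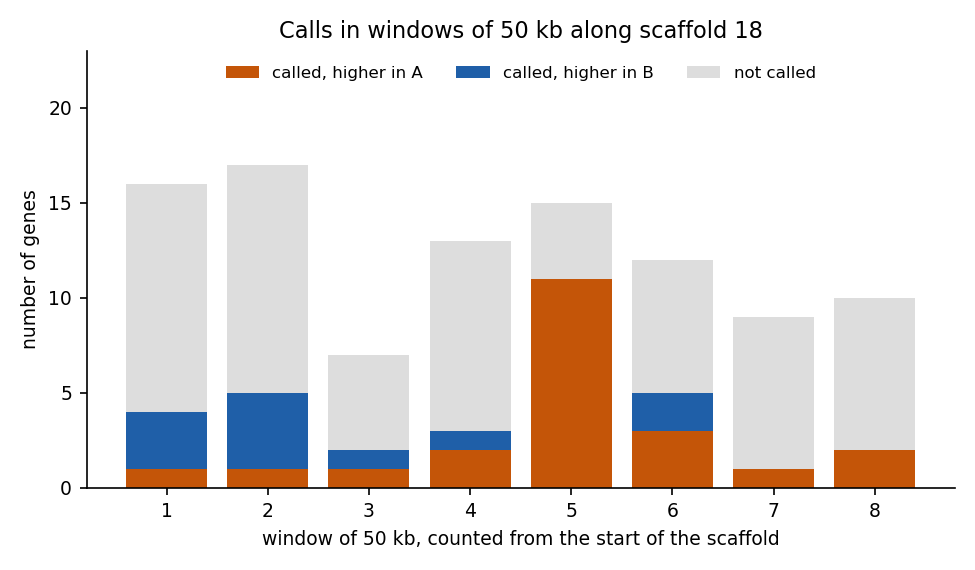
Bars give the number of genes in each 50 kb window of scaffold 18, counted from its start, that were called higher in A, called higher in B, or not called by DESeq in the authors' deposited table. Window 5 holds 11 calls, all higher in A, whereas no other window holds more than 5 calls. All genes of window 5 belong to the interval, which was picked for calls in that direction.

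The interval of 62.2 kb from 186989 to 249191 opens with 5 called genes. The first (186989 to 187905) had a mean of 91.1 normalized counts in A against 4.28 in B by the authors' deposited table, that is 21.3-fold lower in B. It is followed by 11.9 kb in which the table lists no gene. The second (199788 to 202124) was low in both arms, at 11.4 in A against 0.770 in B by the authors' deposited table. Its B mean is worth 2 counts, both in the same library, and the ratio of 14.8 carries a counting interval (95%) of 4.11 to 123. The next 2 genes were listed at 0 in B, which means no count in any of the 3 libraries. The gene at 204162 to 205226 had 47.0 normalized counts in A by the authors' deposited table, which is at least 40.7-fold higher than in B. The gene at 206193 to 207125 had 34.0 in A by the authors' deposited table, which is at least 29.5-fold higher. Both bounds set B at 3 counts over the arm (a mean of 1.15 normalized counts). Such bounds and the counting intervals reflect counting error of the lower arm alone and take the mean of the other arm as exact. Whether a gene with no count in B was silent, missing or too diverged to be counted in that strain was not tested. The fifth gene (207470 to 208898) closed the run with 74.97 in A against 8.31 in B by the authors' deposited table, that is 9.02-fold lower in B.

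The 4 genes in the middle of the interval differed far less and were not called by DESeq. The gene at 209852 to 211392 had 52.2 in A against 22.4 in B by the authors' deposited table. At 212713 to 214980 the means were 454 in A against 231 in B by the authors' deposited table, and at 215870 to 217557 they were 260 and 129. The last of the 4 (217563 to 218517) had 814 in A against 459 in B by the authors' deposited table. Their log2 differences lay between -1.22 and -0.83, and their DESeq adjusted p between 0.0865 and 0.205. Each of these differences was smaller than that of any of the 13 called genes of the interval, of which the smallest was -1.43. The last pair lies 5 bp apart on opposite strands, and the strand setting of the counting is not given in the sources used here.

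The second run held 8 called genes. It began with the smallest difference, at 225359 to 227616, with 1547 normalized counts in A against 574 in B by the authors' deposited table, that is 2.69-fold lower in B. The next gene, estExt_fgenesh3_pm.C_180045 (protein 158940, 233082 to 233922), had 1381 in A against 32.7 in B by the authors' deposited table, that is 42.2-fold lower in B. At 235014 to 237446 the means were 72.1 in A against 3.16 in B by the authors' deposited table. The size of the difference thus ranged from 2.69-fold to 42.2-fold among 3 neighbours. The gene at 238068 to 238958 stood at 1318 in A against 57.3 in B by the authors' deposited table, that is 22.98-fold lower. The shortest model of the interval, 427 bp long (241421 to 241847), had 33.8 in A against 2.59 in B by the authors' deposited table, where B is worth 8 counts, spread over all 3 libraries.

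The most abundant gene of the interval (242895 to 243526) had 16764 normalized counts in A against 4335 in B by the authors' deposited table, that is 3.87-fold lower in B at an adjusted p (DESeq) of 0.0024. Per kb of gene model its levels were 26525 normalized counts in A and 6859 in B, rank 40 among all genes by the mean of both. The gene after it (244279 to 246329) had 195 in A against 19.1 in B by the authors' deposited table, that is 10.2-fold lower. The run closed with estExt_fgenesh2_pg.C_180061 (protein 129439, 247230 to 249191), at 202 in A against 0.760 in B by the authors' deposited table. That B mean is 1 count in each of 2 libraries and none in the remaining library, and the ratio of 266 carries a counting interval (95%) of 73.7 to 2199. It was the largest difference of any scaffold 18 gene with counts in both arms.

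Summed over the 17 genes, the means were 23351 in A and 5880 in B, a ratio of 3.97. The most abundant gene made up most of both sums, and without it the sums were 6587 and 1545, a ratio of 4.26.

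**Figure D3:**
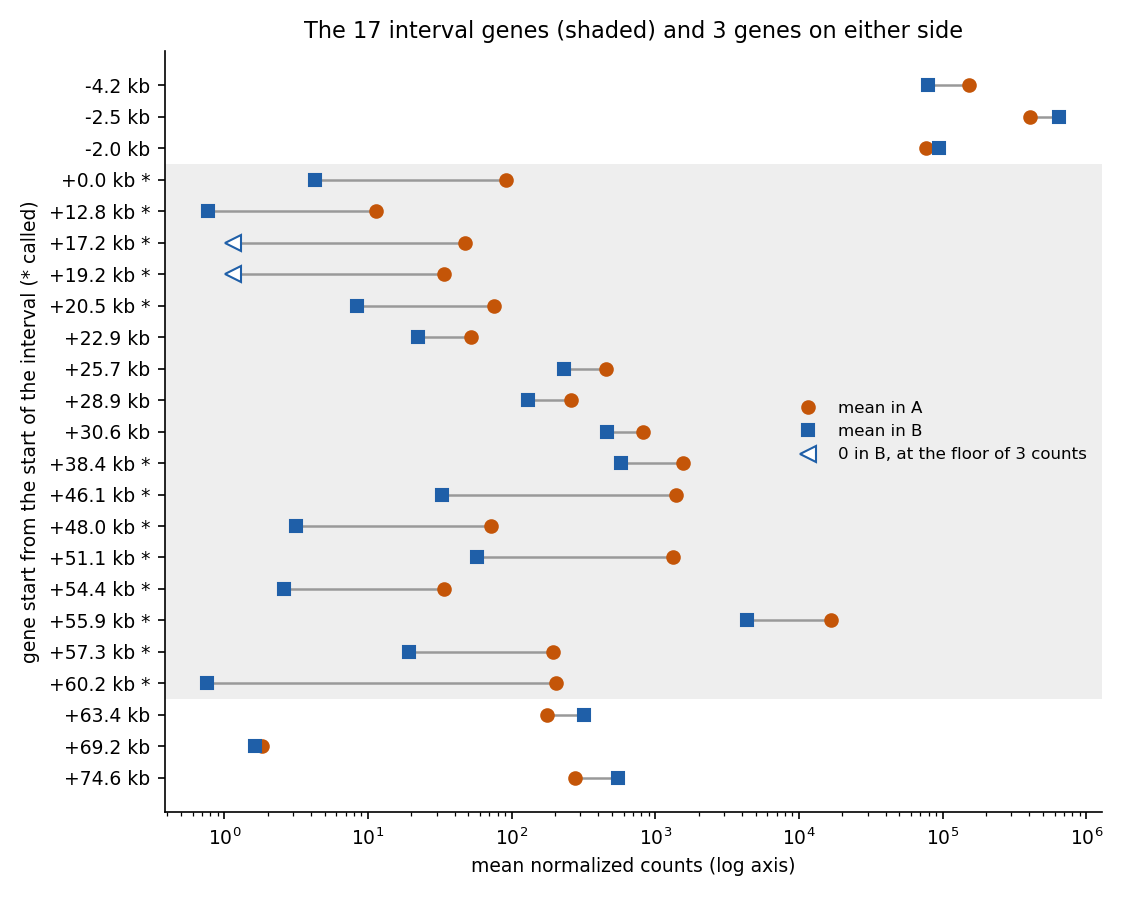
Rows are the 17 interval genes (shaded) and the 3 genes on either side, in order along the scaffold, with mean normalized counts in A (circles) and B (squares) on a log axis; asterisks mark genes called by DESeq in the authors' deposited table. Open triangles mark the 2 genes listed at 0 in B, drawn at the floor of 3 counts, which is an upper limit. Every interval gene has its B mean to the left of its A mean, and the 6 neighbours show no common direction.

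Directly before the interval lie 3 genes that are among the most abundant of the whole table. The gene e_gw1.18.160.1 (protein 68502, 184512 to 184872) is a model of only 361 bp on the plus strand. It had 408127 normalized counts in A against 646383 in B by the authors' deposited table, which is 4.37% of all normalized counts in A and 6.15% in B. Per kb of gene model it ranked 1 among all 9280 genes. Its log2 difference of 0.66 was not called by either tool, with adjusted p-values of 0.864 (DESeq) and 0.55 (edgeR) taken from the authors' deposited table. The spread between replicates behind that p is not in the table.

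Its neighbours on both sides lie on the minus strand and were not called either. The gene before it (182828 to 183237, 410 bp) had 152534 in A against 78777 in B by the authors' deposited table, a log2 difference of -0.95 with a DESeq adjusted p of 0.492. Per kb it ranked 3 in the table. The gene after it (185026 to 186233) lies 153 bp away, ends 755 bp before the interval and ranked 9 per kb. It had 76719 in A against 94545 in B by the authors' deposited table, a log2 difference of 0.30 with a DESeq adjusted p of 0.933. Together the 3 genes held 6.83% of the normalized counts in A and 7.80% in B, and all 99 genes of the scaffold held 7.66% and 8.57%. Without the 3 genes, the other 96 summed to 77333 in A and 80754 in B.

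On the far side, 1220 bp separate the interval from the next gene, and none of the first 3 genes there was called by either tool. The first of them (250412 to 254360) had 177 in A against 320 in B by the authors' deposited table, with a DESeq adjusted p of 0.193. The gene at 256182 to 256817 was near the lower limit in both arms, with 6 counts in A and 5 in B. The gene at 261572 to 269467, at 7896 bp the longest model of the scaffold, had 276 in A against 549 in B by the authors' deposited table, with a DESeq adjusted p of 0.0558. None of these 3 was lower in B by more than 1.12-fold.

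**Figure D4:**
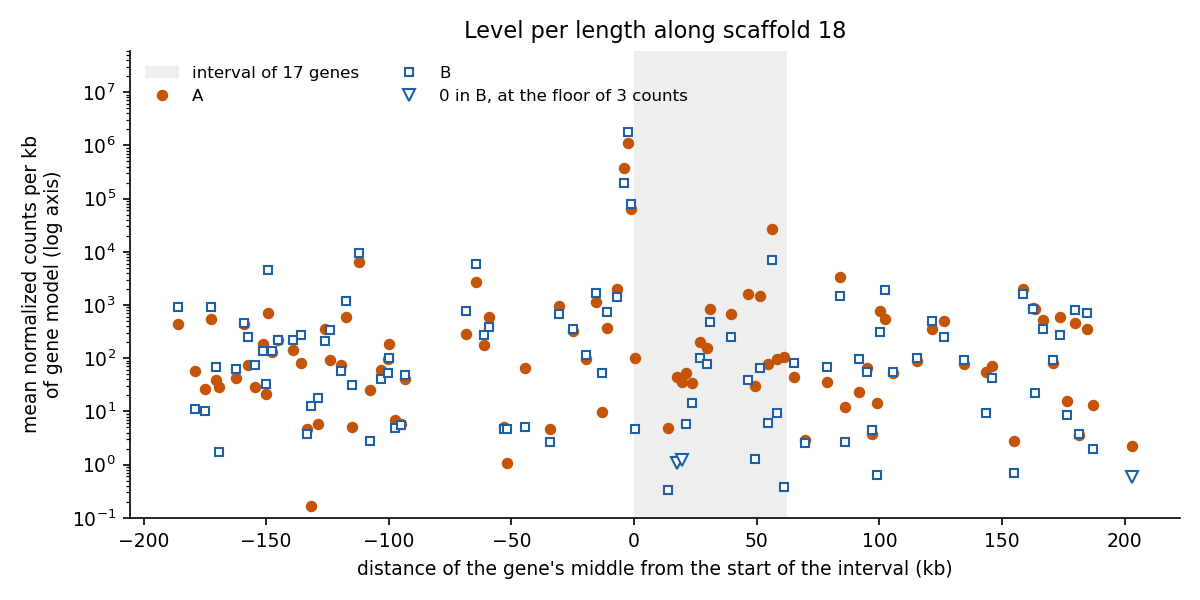
Mean normalized counts per kb of gene model (introns included) in A (circles) and B (squares) for the 99 genes, on a log axis, by distance of the gene's middle from the start of the interval (kb); triangles are genes at 0 in B, drawn at the floor of 3 counts. The 3 abundant genes stand directly before the shaded interval, and the levels of the interval in A lie within the range seen along the rest of the scaffold.

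Before the interval, most called genes were higher in B. The gene fgenesh3_pm.C_scaffold_18000014 (protein 142796, 54393 to 56171) had a mean of 22.2 in B where A had 0.301 by the authors' deposited table. The A mean is 1 count in 1 library, and the ratio of 73.7 carries a counting interval (95%) of 13.2 to 2913. It was the largest difference toward B on the scaffold, but at a low level. The gene with the largest difference toward B among those with a mean of at least 50 was estExt_fgenesh3_kg.C_180003 (protein 169528, 37196 to 37978), which had 544 in A against 3517 in B by the authors' deposited table, that is 6.46-fold higher in B. At 71426 to 72770 the means were 6.75 in A against 42.4 in B by the authors' deposited table, that is 6.28-fold higher. At 173589 to 174617 they were 10.05 in A against 55.2 in B by the authors' deposited table, that is 5.49-fold higher. Of these 4 genes, 3 had a mean of at most 10.05 in A.

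The other 5 genes called higher in B before the interval, named with their values in view, differed by 2.55-fold to 3.72-fold. The pair at 28951 to 30498 and 30424 to 34164 lies end to end on opposite strands and overlaps by 75 bp. The first had 117 in A against 392 in B by the authors' deposited table, and the second 108 and 275. Because the strand setting of the counting is not given in the sources used here, reads in the overlap cannot be assigned to either gene with certainty. At 50592 to 52001 the means were 113 in A against 382 in B by the authors' deposited table. The gene at 62705 to 63625 had 84.4 in A against 314 in B by the authors' deposited table. The last of the 5 (117690 to 119544) had 538 and 1461 by the authors' deposited table and is the first gene after the longest stretch without a listed gene, 23.6 kb.

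Genes called higher in A numbered 3 of the 51 before the interval, beside 8.03% of all genes, and lay far apart. The first (6127 to 9705) had 202 in A against 39.1 in B by the authors' deposited table, that is 5.17-fold lower in B. The second (78729 to 80116) had 35.1 in A against 3.799 in B by the authors' deposited table, that is 9.23-fold lower. The third (141758 to 142940) had 77.5 in A against 5.90 in B by the authors' deposited table, that is 13.1-fold lower. Neither neighbour of any of these 3 was called by DESeq.

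After the interval, the largest called difference toward A was that of the 255 bp model at 350448 to 350702, with 217 in A against 5.65 in B by the authors' deposited table, that is 38.3-fold lower in B. Its end overlaps by 6 bp with the gene at 348695 on the opposite strand, which had 1570 in A against 1468 in B by the authors' deposited table. The gene at 285372 to 286591 had 17.5 in A against 0.770 in B by the authors' deposited table, where B is 2 counts in 1 library, and the ratio of 22.8 carries a counting interval (95%) of 6.31 to 188. At 329951 to 331128 the means were 66.1 in A against 10.9 in B by the authors' deposited table, that is 6.06-fold lower in B. The remaining 3 genes called higher in A, at 270772, 286875 and 359749, differed by 2.23-fold to 2.47-fold and were named with their values in view.

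Of the 31 genes after the interval, 2 were called higher in B, beside 6.93% of all genes. These 2 lie among genes of the opposite direction. The gene at 277675 to 279491 had 41.3 in A against 176 in B by the authors' deposited table, that is 4.26-fold higher in B. The gene at 288663 to 289589 had 512 in A against 1794 in B by the authors' deposited table, that is 3.50-fold higher. Between them lie 2 genes called higher in A, so that the direction changed within a few genes here.

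Very low means were mostly in B. A mean under 3 normalized counts was listed in B alone for 13 of the 99 genes, in A alone for 1 and in both arms for 5. The 13 include the interval genes at 199788, 204162, 206193, 241421 and 247230, and the interval was picked for lower means in B. Counted regardless of the other arm, 18 of the 99 genes had a mean under 3 in B and 6 in A. Over all 9280 genes, 608 had a mean under 3 in B and 471 in A, counted in the same way. On scaffold 18, no gene was listed at 0 in A and 3 were listed at 0 in B, where 46 and 107 of all 9280 genes were. Of the 3 genes, 2 lie in the interval. The third of these, the last gene of the scaffold (389050 to 391008), had 4.31 in A by the authors' deposited table. That is at least 3.73-fold higher if this A mean is taken as exact, with a DESeq adjusted p of 0.0771 and an edgeR adjusted p of 0.0079. The 216 bp model at 17596 had 6.26 in A and a single count in B, and the ratio of 16.7 carries a counting interval (95%) of 2.99 to 659. At 373770 the ratio was 6.81, with 1 count in each library of B and a 95% counting interval from 2.33 to 33.0. The A means of these last 3 genes are low too, and the bound and intervals leave out their counting error. All 3 were called by edgeR only.

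By edgeR, the authors' deposited table called 44 of the 99 genes, beside 21.4% of all genes. Of these, 32 were also called by DESeq. The interval had 16 of 17 genes called by edgeR, and the exception, at 217563, had an edgeR adjusted p of 0.0517. The interval was picked for calls higher in A. Outside it, edgeR called 28 of 82 genes, 15 toward B and 13 toward A. Over all 9280 genes, edgeR called 904 toward B and 1080 toward A. The gene at 270772 was called by DESeq alone, where the authors' deposited table gives 0.0266 for DESeq and 0.0553 for edgeR. It had 2172 in A and 968 in B.

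The 62 uncalled genes outside the interval were split between the directions, 32 with the higher mean in B and 30 with the higher mean in A, at a median log2 difference of 0.05. Within 2-fold were 50 of the 62. The abundant gene at 73485 to 76093 was one of them, with 17032 in A against 25229 in B by the authors' deposited table and a DESeq adjusted p of 0.562. The first gene of the scaffold, which starts at 2, had 935 in A against 1945 in B by the authors' deposited table, with a DESeq adjusted p of 0.082. The gene at 121580 to 123242 had 4516 in A against 9830 in B by the authors' deposited table and was called by edgeR alone, with an adjusted p of 0.0365.

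The size of the differences can be read beside that of all genes. The median absolute log2 difference was 0.97 over scaffold 18, 3.71 over the interval, 0.84 over the 82 genes outside it and 0.52 over all 9280 genes. At least 2-fold apart were 47 of the 99 genes, and outside the interval 32 of 82 (39.0%), where the share over all genes was 26.5%. Calls that were also at least 4-fold apart numbered 22, beside 7.10% of all genes; 11 of them lay in the interval and 11 outside it. Outside the interval, 20 of 82 genes (24.4%) were called by DESeq in the authors' deposited table. Scaffold 13, with 66 of 269 genes called (24.5%), had a median absolute log2 difference of 0.87, and scaffold 11, with 20 of 302 called, one of 0.43. The differences between these scaffolds were not tested.

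Levels on scaffold 18 ran from a mean of 0.851 normalized counts over both arms to 527255, with a median of 191, beside 226 over all genes. Means under 50 were found for 36.4% of its genes and 24.2% of all genes. Calls were found at low and high levels. Of the 36 members with a mean under 50, 14 were called, 11 of them higher in A. Of the 26 with a mean of 700 or more, 8 were called. These counts include the interval, which was picked for calls higher in A. Outside it, 7 of 28 members under 50 and 5 of 23 at 700 or more were called. Over all genes, these tiers had 14.0% and 16.0% called in the authors' deposited table.

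**Figure D5:**
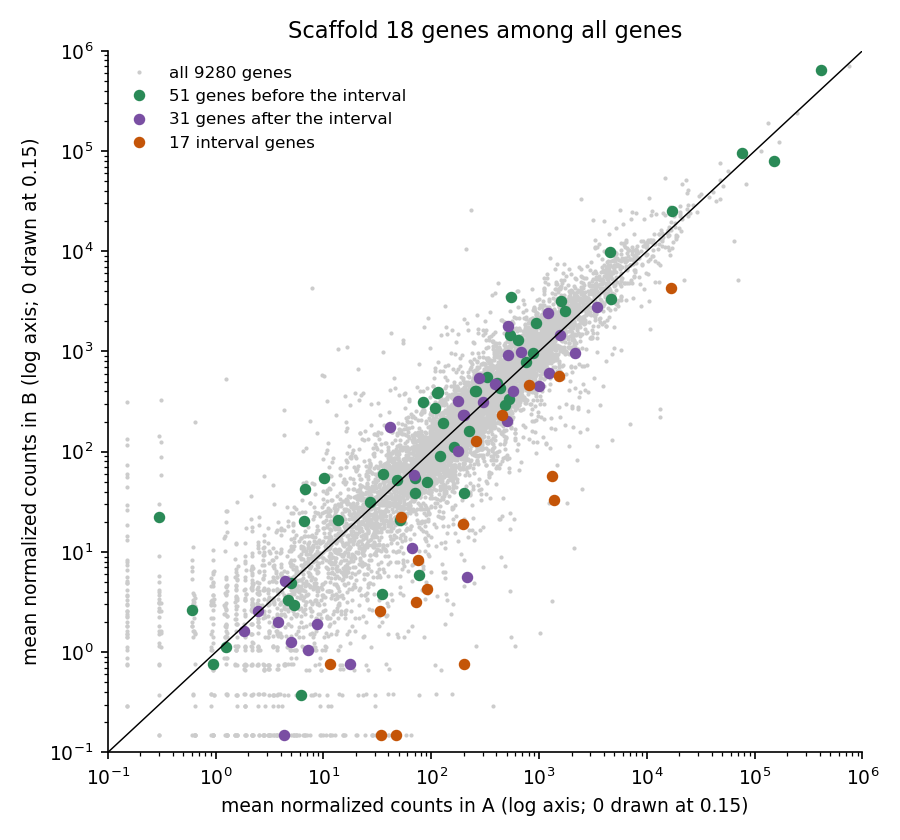
Mean normalized counts in A against those in B, both on log axes, for all 9280 genes (grey) and for the scaffold 18 genes before the interval, in it and after it; a mean of 0 is drawn at 0.15, and the line marks equal means. The 17 interval genes lie below the line, across A means from 11.4 to 16764, and the 3 abundant genes stand at the upper end near the line.

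Some features of the gene models were not part of how the scaffold was chosen, and they are given without a test. The median model length was 1345 bp on scaffold 18, 1429 bp in the interval and 1716 bp over all genes, introns included. The median distance between neighbouring models was 1312 bp on the scaffold, 1006.5 bp in the interval and 1039 bp over all genes. The interval had 11 genes on the minus strand and 6 on the plus strand, and the rest of the scaffold 33 and 49. Models whose ID carries the name of the predictor SNAP numbered 13 of 99 (13.1%), beside 7.79% of all genes. Their median level was 17.01 normalized counts, against 248 for the other 86. Calls among them are no independent feature: of the 5 that were called, all higher in A, 4 lie in the interval, which was picked for calls in that direction.

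Of the 98 pairs of neighbouring genes on the scaffold, 59 had the same sign of difference (60.2%), where 56.3% of all 9216 neighbouring pairs did. In the interval 16 of 16 pairs had the same sign, which the runs that define it fix for most of them. Before it the count was 28 of 50 (56%) and after it 15 of 30 (50%), neither above the share over all neighbouring pairs. There were 6 pairs on diverging strands less than 1000 bp apart. Of these, 4 had the same sign, among them the pair of interval genes at 204162 and 206193 listed at 0 in B. The pair at 212713 and 215870 is another of the 4 and also lies in the interval, where every gene was lower in B. In the pair at 60460 and 62705 the signs differed, with log2 differences of -0.71 and 1.90.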

How the data were processed

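RNA sequencing was compared for 2 parental strains after 15 min of light, with 3 libraries each. The submitters' processing notes name DESeq, edgeR, HTSeq, SAMtools, TopHat2 2.1.1, cutadapt 1.3 and FastQC 0.11.4, without roles. No genome build, annotation or strand setting is given in the sources used here. Per the file headers, the authors deposited a signal averaged over both arms and a score per arm (means of read counts divided by size factors), a fold ratio, log2 fold changes, p-values, adjusted p-values, a likelihood ratio score and an average in log2 CPM. Benjamini-Hochberg adjustment of the deposited p-values over the 9280 rows came within 0.0008 of the deposited adjusted values. With 1 mean per arm no count model was fitted, and calls are those the authors deposited; the planned test on counts was not possible.

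Computed here with Python 3.11.15, pandas 2.3.3 and SciPy 1.17.1 were log2 of B over A, levels per kb, runs and windows. Means above 0 and under 3 were written as whole counts of the 3 libraries of an arm (tolerance 0.0004), which had a single solution for each of 425 means of A and 501 of B. This step and the search for runs were tested on simulated data. No simulated library was rescaled, so the test does not cover the rescaling considered further below. A mean of 0 in B was set at 3 counts over the arm, 1.15 normalized counts. Intervals are exact Poisson intervals (95%) of the low arm, and in bounds and intervals the mean of the other arm was taken as exact.

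Scaffold, interval, lists and rules were chosen with earlier results of these data known. Named were the interval genes, 3 genes on either side, the 5 most abundant genes and genes outside the interval called by either tool at 4-fold or more; the others were picked after their values had been seen. Alternatives were the calls of either or both tools that the authors deposited, stricter limits, a minimum mean, equal arm totals, a pseudocount and leaving out overlapping models. At most 2 IDs per direction and that of the gene at 184512 are printed.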

Additional observations from a re-analysis of the deposited data

Results flagged for a closer look

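The average expression that edgeR gave, in log2 CPM, was not used here to compare the arms. For the gene at 173589 to 174617, whose arm means were 10.05 (A) and 55.2 (B), this average in the authors' deposited table was 2.22 log2 units higher than its mean over both arms, after centring on genes with a mean of 100 or more. Among scaffold 18 genes with a mean of 10 or more, it alone was more than 1 log2 unit higher. For the 63 members with a mean of 50 or more, the value ran from -0.38 to 0.80. Which libraries the average covers is not given in the sources used here, and no control library can be set beside it.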

How the results depend on the processing

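No paired analysis was possible because only arm means, with no replicate numbers, are in the authors' deposited table. Leaving out replicates and other normalizations were not run for that reason. Requiring a mean of 50 or more left 19 of 33 calls on the scaffold, 6 of 13 in the interval and 13 of 20 outside it, since fewer genes were counted, and the interval median became -1.95. A 4-fold limit left 11 calls outside the interval. Equal arm totals moved the median outside it from 0.06 to -0.11, by construction. Among the other 24 values, counts stayed within 1.5 times of the reported count, and medians kept their sign and moved by less than 1.5-fold on the ratio scale. The interval median lay between -3.88 and -3.28 there, and the median outside between 0.04 (edgeR fold changes) and 0.24 (a mean of 50 or more).

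As an alternative added once values were known, omitting the 3 abundant genes took the scaffold's share of the totals to 0.889% (A, from 7.66%) and 0.834% (B, from 8.57%). Low counts lack the number 1 in 1 library of A and the number 2 in 1 library of B, so whole counts printed for these libraries may not be read counts. Were the counts of that library of B rescaled by 1.5, the floor would be a mean of 1.31 and the bounds of 40.7-fold, 29.5-fold and 3.73-fold would be 35.9, 26.0 and 3.29. Depth limits genes with few counts in B, whose folds are bounds or have wide intervals.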
